A study of Mus musculus with 6 samples.

Results

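Interferon-induced genes outside the guanylate-binding protein (GBP) family were examined in mouse myotubes in which the long noncoding RNA H19 had been knocked down. The 8 genes are Irgm1, Rsad2, Usp18, Mx1, Ifit1, Ifi44, Cxcl10 and Oasl1, and each was found by its symbol as 1 feature among the 3019 features of the authors' pooled table. They were chosen by their presence in that table, which holds the features that the authors called different between the groups, so the differences below are descriptions and were not tested. The cells were C3H myotubes on day 4 of differentiation, obtained from a mouse myoblast line by serum reduction. They were transfected at 40 h of differentiation with siCon, a negative control siRNA, or with siH19, an siRNA against H19, and RNA was taken 48 h later from 3 libraries of each group. Both groups therefore carried a transfected double-stranded RNA, and with 1 siRNA per group an effect of the siRNA molecule and an effect of the loss of H19 cannot be told apart. Cells without transfection were not analysed here.

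Type I and type II interferons bind receptors at the cell surface, whose JAK kinases phosphorylate STAT proteins. Activated transcription factors then bind interferon-stimulated response elements or gamma-activated sequences in promoters. The induced genes encode antiviral proteins, chemokines and inhibitors that end the response, and muscle cells, like most cell types, can express them.

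The table gives 1 log2 FPKM value for each group, that is, the log2 of fragment numbers corrected for transcript length and for sequencing depth, estimated by the authors over 3 libraries. Values per library, library depths and the authors' q values were not analysed here, so no difference below is set against the spread between replicates. In siCon, H19 (feature XLOC_026027) had a log2 FPKM of 11.20 and in siH19 of 7.50, or 7.69% of the control level. Of 16 myotube marker genes 14 were listed, in 10 features that were each higher in siH19, by 0.44 to 1.49 with a median of 0.75. Over all listed features 62.8% were higher, and the median difference was 0.45. The summed level of the myotube markers was 9636 FPKM in siCon and 15460 FPKM in siH19. Whether the myotube markers and the interferon-induced genes moved for a shared reason was not tested. In bulk RNA, fewer cells of a type and less RNA per cell cannot be told apart. Of 5 markers of undifferentiated myoblasts, Myf5 was listed, with a difference of -0.38, and of 5 fibroblast markers Col1a1, with 0.41. None of the 8 leukocyte and 4 endothelial marker genes was listed. A gene that is not listed was not called by the authors, which does not place its level at 0.

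The sequences before the transcription starts are shown first, because interferon-induced genes are commonly controlled through response elements in their promoters. The RefSeq promoter sequences of GRCm38.p6, the build also called mm10, covered 6 of the 8 genes, without Usp18 and Mx1. For Rsad2, the gene that differed in direction, and for Cxcl10 the 250 bases before the annotated start are given 5′ to 3′. For Ifit1 and Irgm1 they were shortened to a stretch with at most 30 bases of annotated exons. Capitals mark matches to the core of the response element, searched on both strands as GAAANNGAAA and, with a shorter spacer, as GAAANGAAA.
Rsad2 (chr12:26456453-26456702, minus strand): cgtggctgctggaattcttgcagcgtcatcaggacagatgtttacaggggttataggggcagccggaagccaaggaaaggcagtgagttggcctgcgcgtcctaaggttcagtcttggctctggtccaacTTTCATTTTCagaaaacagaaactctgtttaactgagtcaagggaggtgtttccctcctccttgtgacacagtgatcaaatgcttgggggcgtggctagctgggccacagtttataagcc
Cxcl10 (chr5:92348890-92349139, minus strand): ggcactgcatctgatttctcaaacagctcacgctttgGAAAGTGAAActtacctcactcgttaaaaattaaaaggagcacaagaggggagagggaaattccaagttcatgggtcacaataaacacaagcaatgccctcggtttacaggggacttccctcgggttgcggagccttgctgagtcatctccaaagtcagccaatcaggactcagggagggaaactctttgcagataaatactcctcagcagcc
Ifit1 (chr19:34640732-34640888, plus strand): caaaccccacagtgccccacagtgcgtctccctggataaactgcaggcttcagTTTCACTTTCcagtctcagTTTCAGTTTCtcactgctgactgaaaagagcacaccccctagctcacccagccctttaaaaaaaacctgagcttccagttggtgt
Irgm1 (chr11:48871421-48871450, minus strand): GAAATAGAAACCGAAActgattctcaattc

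The longer core was found in the promoters of 4 of the 6 genes, Rsad2, Cxcl10, Ifit1 and Irgm1. Over all 32851 RefSeq promoters of the same 250 bases, 2.98% held it. In Rsad2 the match lies 120 to 111 bases before the start, and in Cxcl10 it lies 213 to 204 bases before it. Ifit1 holds a pair of matches, at 104 to 95 and at 85 to 76 bases before the start, and so does Irgm1, where the matches at 30 to 21 and 24 to 15 bases overlap. At least 2 matches were present in 0.180% of all promoters. In Ifi44 the shorter core, held by 2.68% of all promoters, was found 48 to 40 bases before the start. In GENCODE, which places some starts farther upstream, the Irgm1 window of 250 bases lies wholly within annotated exons of Irgm1, and the Ifi44 match lies within 50 bases annotated as Ifi44 exon. Neither core was found in this window of Oasl1, part of which lies after the start of the RefSeq gene span, at 114923143, since the promoter table uses a start farther downstream. The gamma-activated core TTCNNNGAA, which reads the same on both strands and is present in 7.02% of all promoters, was found in none of the 6. Rsad2, which was lower in siH19, thus shared the longer core with genes that were higher. Matches of letters describe these windows and do not show that a factor was bound in the myotubes.

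Of the 8 genes, 7 were higher and 1, Rsad2, was lower in siH19. With a difference of at least 1.5-fold (0.585 on the log2 scale) required, 5 were higher and 1 was lower. Among all listed features 37.4% were higher and 16.9% lower by at least 1.5-fold, and 62.8% were higher when no minimum was set. The median difference over the 8 genes was 0.69, against 0.45 over all listed features. Since the genes were chosen from this contrast, nothing was read from these shares. The listed features as a whole lay on the higher side, and with each difference lowered by their median of 0.45 the counts became 1 higher and 1 lower by at least 1.5-fold. On that scale Mx1 stood at 0.62, Irgm1 turned to -0.10 and Rsad2 reached -1.25.

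**Figure D1:**
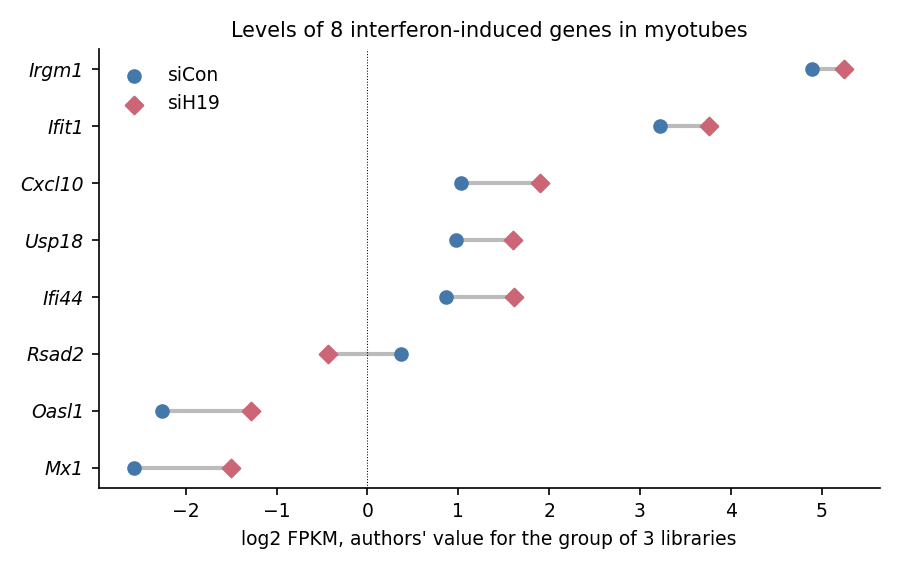
Log2 FPKM (x axis, authors' value for the group of 3 libraries) of the 8 genes in siCon (blue circles) and siH19 (red diamonds), ordered by the siCon level; no error is drawn, since values per library were not analysed. In 7 genes the siH19 value lies to the right of the siCon value, and in Rsad2 it falls from 0.37 to -0.43.

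Per length, the 8 genes spanned a log2 range of 7.47 in siCon and 6.75 in siH19. They fell into 3 levels, with 2 genes over a log2 FPKM of 3 in siCon, 4 genes between 0 and 2, and 2 genes under 0 in both groups. In siH19, Rsad2 had a value below 0 as well, and the other 7 genes stayed within these bounds. Summed over the 8 genes the level was 46.7 FPKM in siCon and 62.9 FPKM in siH19, and Irgm1 contributed 64.0% of the siCon sum. Without Irgm1 the sums were 16.8 and 24.9 FPKM.

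Of the 8 genes, 5 encode antiviral effectors, and among these 5 Ifit1, whose protein binds viral RNA with an incompletely methylated cap, had the highest level. Ifit1 (XLOC_013672, chromosome 19, 34640889 to 34650009, plus strand) had 9.32 FPKM in siCon and 13.5 FPKM in siH19, a log2 difference of 0.54. At 1.45-fold it lay just under the 1.5-fold minimum, and Usp18 at 1.55-fold lay just over it. Ifi44 (XLOC_018274, chromosome 3, 151730923 to 151749959, minus strand), a cytoplasmic interferon-induced protein, had 1.82 FPKM in siCon and 3.05 FPKM in siH19, a log2 difference of 0.75.

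Rsad2 encodes viperin, a radical S-adenosylmethionine enzyme that makes a chain-terminating nucleotide and thereby blocks viral RNA synthesis. Rsad2 (XLOC_006232, chromosome 12, 26442743 to 26456452, minus strand) had 1.29 FPKM in siCon and 0.742 FPKM in siH19, a log2 difference of -0.80. The siH19 level was thus 0.574 times that of siCon. With 1 FPKM added to both groups before taking the log2, the difference was -0.40, which no longer reached 1.5-fold. In siCon its log2 FPKM was 0.49 below that of Ifi44, and in siH19 the gap was 2.04. Its difference lay 1.15 below that of Irgm1, the next gene. Of all listed features, 9.97% had a difference as low or lower. No other listed feature lay within 200 kb of Rsad2, and the locus in the table held no other annotated gene.

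Mx1 and Oasl1 showed the 2 largest differences and the 2 lowest levels. Mx1 encodes a nuclear GTPase that restricts influenza virus, and many inbred laboratory strains carry a defective copy. In the annotations of the reference strain it is a transcribed pseudogene in RefSeq and protein coding in GENCODE. Mx1 (XLOC_011130, chromosome 16, 97447035 to 97462906, minus strand) had 0.168 FPKM in siCon and 0.354 FPKM in siH19, a log2 difference of 1.07. Oasl1 encodes a protein related to the oligoadenylate synthetases that in mice limits translation of Irf7 mRNA. Oasl1 (XLOC_020689, chromosome 5, 114923240 to 114937911, plus strand) had 0.209 FPKM in siCon and 0.412 FPKM in siH19, a log2 difference of 0.98 or 1.97-fold. Its locus shares bases with the antisense gene Gm13822, and the strand setting of the authors' counting is not given in the sources used here. In absolute terms the 2 genes differed little, by 0.185 FPKM for Mx1 and 0.203 FPKM for Oasl1. With 1 FPKM added to both groups before taking the log2, their differences were 0.21 and 0.22.

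The inhibitor in the group, Usp18, removes the ubiquitin-like protein ISG15 from its targets and shuts off signalling at the type I interferon receptor. Usp18 (XLOC_022506, chromosome 6, 121245906 to 121270917, plus strand) had 1.96 FPKM in siCon and 3.03 FPKM in siH19, a log2 difference of 0.63. The annotated noncoding gene Gm44148 overlaps it on the opposite strand.

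Cxcl10 encodes a secreted chemokine that attracts activated T cells through the receptor CXCR3. Cxcl10 (XLOC_021399) had 2.04 FPKM in siCon and 3.73 FPKM in siH19, a log2 difference of 0.87 or 1.83-fold. The locus in the table (chromosome 5, 92331841 to 92414627) covers 82787 bp, whereas the annotated Cxcl10 gene on the minus strand covers 2252 bp (92346638 to 92348889). Art3, Cxcl11 and the pseudogene Gm2673 are annotated in the same stretch, and none of their symbols is listed. Whether fragments from them entered the Cxcl10 value was not tested. In siCon, Cxcl10, Usp18 and Ifi44 lay within 0.17 on the log2 scale, and in siH19 within 0.30, so no order among them was read from values without a spread.

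Irgm1 is an immunity-related GTPase that acts in the autophagy of intracellular pathogens. Irgm1 (XLOC_004654, chromosome 11, 48865249 to 48872360, minus strand) had 29.9 FPKM in siCon and 38.1 FPKM in siH19, a log2 difference of 0.35 or 1.27-fold. It was the most abundant of the 8 genes, at or above 80.4% of the listed features with a symbol in siCon, and its difference was the smallest. Its absolute change, 8.20 FPKM, was nevertheless the largest among them.

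Differences and levels thus ran in opposite order over much of the group, as they did over the table. Listed features with a symbol were divided by the mean of their 2 group values. Under a log2 FPKM of -1, where Mx1 and Oasl1 lie, the median size of the difference over 114 features was 1.19, and the smallest was 0.54. From -1 to 0, where Rsad2 lies, the median was 0.99 over 139 features. Of these 39.6% were higher in siH19. The mean of Rsad2, -0.03, lies at the edge of the next range, from 0 to 2, where 52.7% were higher. From 0 to 2, where Cxcl10, Usp18 and Ifi44 lie, the median was 0.68 over 440 features, and from 2 to 4, where Ifit1 lies, it was 0.53 over 876 features. At 4 and over, where Irgm1 lies, it was 0.49 over 980 features, and the smallest was 0.31. A small difference at a low level was therefore not listed, and the larger differences of Mx1 and Oasl1 cannot be told apart from this effect of the listing. The direction followed the level in the opposite way, since 40.4% of the listed features under -1 were higher in siH19 and 69.1% of those at 4 and over.

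**Figure D2:**
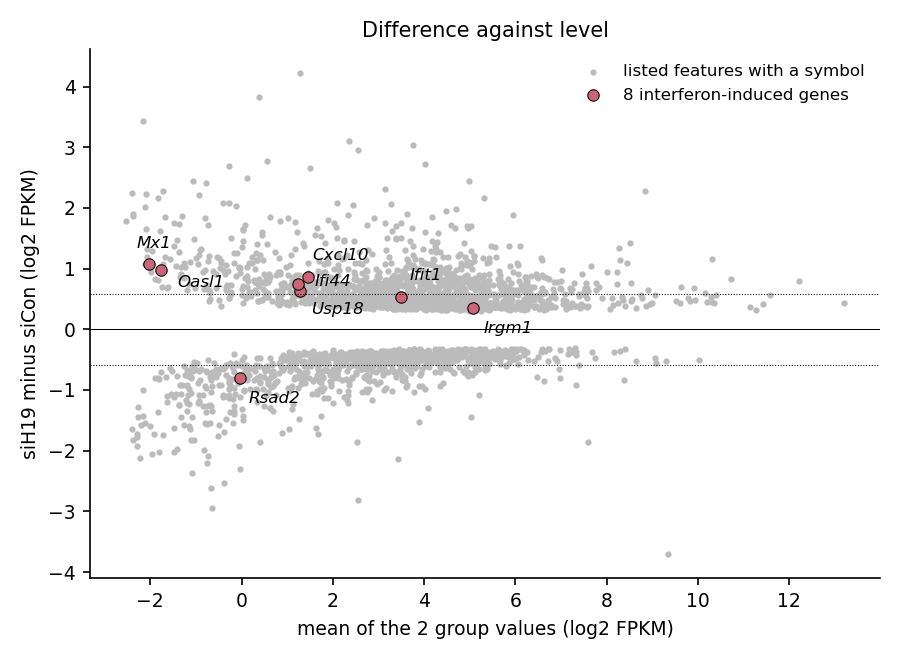
Difference between the groups (y axis, siH19 minus siCon, log2 FPKM) against the mean of the 2 group values (x axis, log2 FPKM) for the 2549 listed features with a symbol (grey) and the 8 genes (red); dotted lines mark 1.5-fold. The empty band around 0 is wider at low levels, and Mx1 and Oasl1 at the left differ by 1.07 and 0.98, while Irgm1 at the right differs by 0.35.

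The region of Irgm1 stood out by the number of listed features, a comparison chosen after the values were seen. Within 200 kb of Irgm1 lay 7 other listed features, and each was higher in siH19, by 0.89 to 1.93 on the log2 scale. Among all listed features 62.8% were higher, and 37.4% were higher by at least 1.5-fold. Of all listed features, 2.45% had at least as many listed neighbours within 200 kb. Tgtp1 (XLOC_004660), another immunity-related GTPase, was higher, from 0.151 to 0.376 FPKM, a log2 difference of 1.32. Its neighbours Gm12185 (XLOC_004656), from 0.297 to 0.603 FPKM, and the joint feature of 9930111J21Rik1 and 9930111J21Rik2 (XLOC_004659), from 1.67 to 3.10 FPKM, differed by 1.02 and 0.89. The loci of Tgtp1 and of the joint feature also overlap Olfr56 and Gm12185. These genes have near copies in the same cluster, so their reads could be divided between copies. Tgtp2 and Ifi47, farther along the cluster, were not listed.

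The other 4 features near Irgm1 carry no symbol. A feature of 184 bp (XLOC_003544, 48863113 to 48863296) was higher, from 6.11 to 23.3 FPKM, a log2 difference of 1.93. By position it lies within an exon of a noncoding Irgm1 transcript in GENCODE, and its strand was not checked. It lies beyond the 3′ end of the locus that the table gives to Irgm1. A feature of 1121 bp (XLOC_004653, 48856299 to 48857419), 7.83 kb from that locus and outside annotated genes, was higher, from 1.10 to 3.56 FPKM, and one of 188 bp (XLOC_003540) was higher, from 19.3 to 62.2 FPKM, each a log2 difference of 1.69. The fourth (XLOC_004657, 1680 bp), in an intron of Gm12185, was higher, from 1.20 to 2.69 FPKM. FPKM is divided by length, so a value for a feature under 200 bp moves strongly with the length assembled for it. Around the other 7 genes lay 7 listed features in all within the same distance, of which 2 were higher and 5 lower. The share of all listed features that were higher was 62.8%.

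**Figure D3:**
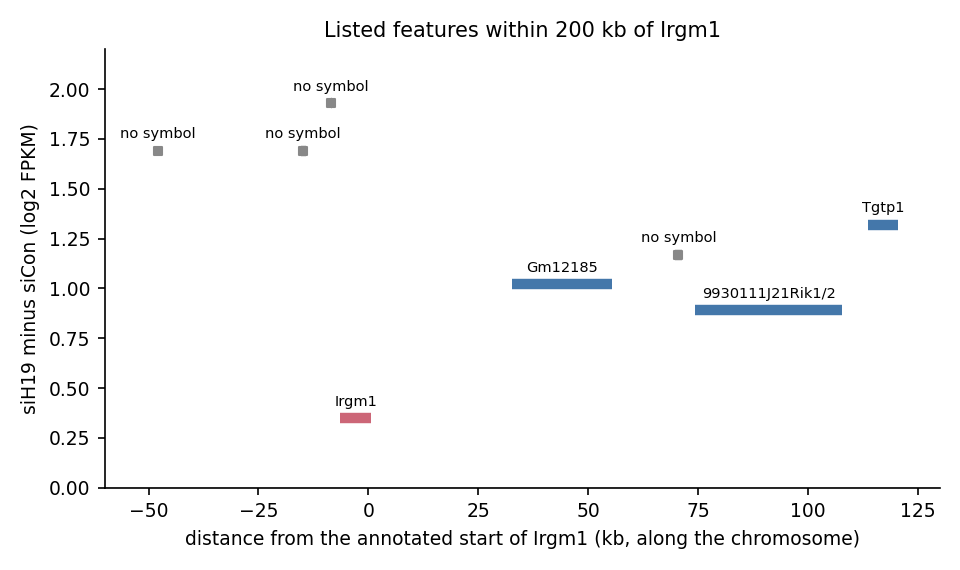
Listed features within 200 kb of Irgm1 by distance along the chromosome from its annotated start (x axis, kb) and by the difference between the groups (y axis, siH19 minus siCon, log2 FPKM); bars span the locus of Irgm1 (red) and of features with a symbol (blue), and squares mark features without one. Irgm1 lies lowest at 0.35, and the 7 others lie between 0.89 and 1.93.

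The genes were then placed within the interferon pathway, using 152 genes grouped by role. Of these, 26 were listed, in 23 features, of which 11 were higher and 12 lower in siH19, where 62.8% of all listed features were higher. At 1.5-fold or more 7 were higher and 6 lower of the 23, beside 37.4% higher and 16.9% lower among all listed features. This split depended on the scale, with 2 higher and 12 lower after centring on the median of 0.45, and 1 higher and 5 lower with 1 FPKM added to both groups. Besides the 8 genes, 4 features were higher and 11 lower, and with the GBP features left out as well 4 were higher and 6 lower. At 1.5-fold or more, 2 were higher and 5 lower with the GBP features, and 2 higher and 0 lower without them.

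None of 20 interferon ligand genes and 6 receptor genes was listed. Of 12 JAK, STAT and IRF genes 3 were listed. Irf7, a transcription factor that drives type I interferon genes, was higher, from 3.86 to 5.50 FPKM, a log2 difference of 0.51. Irf2, which competes with Irf1 at its sites, was higher, from 3.81 to 5.82 FPKM, a log2 difference of 0.61. Tyk2, a kinase at the type I receptor, was lower, with 12.2 FPKM in siCon and 9.71 FPKM in siH19. The sensor list held 1 listed gene of 17, Tmem173 (STING, an adaptor in the sensing of cytosolic DNA), which differed by -0.47.

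Of 49 antiviral effector genes 8 were listed, the 5 named above and 3 others. Bst2, which tethers budding virus to the cell, was higher, from 9.32 to 13.0 FPKM. Isg20, an exonuclease, was lower, from 6.11 to 4.38 FPKM, and Ifi27l1, the older symbol of Ifi27, from 126 to 88.0 FPKM. Rsad2 was therefore 1 of 3 listed effectors on the lower side, and the only one of them past 1.5-fold. In antigen processing, 2 of 18 genes were listed. The proteasome activator subunit gene Psme2 differed by -0.33, and a feature that joins Tapbp with Rgl2 and Zbtb22 by -0.34.

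The 5 listed GBP features, large GTPases induced by interferon, were each lower in siH19, with differences from -0.75 for Gbp1 to -2.94 for Gbp4. Gbp4, Gbp9 and the joint feature of Gbp10, Gbp11, Gbp6 and Gbp8 have the same locus (chromosome 5, 105014153 to 105346474). Gbp1 and Gbp2 are neighbours on chromosome 3. Rsad2 at -0.80 lay between Gbp1 at -0.75 and Gbp2 at -0.87.

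**Figure D4:**
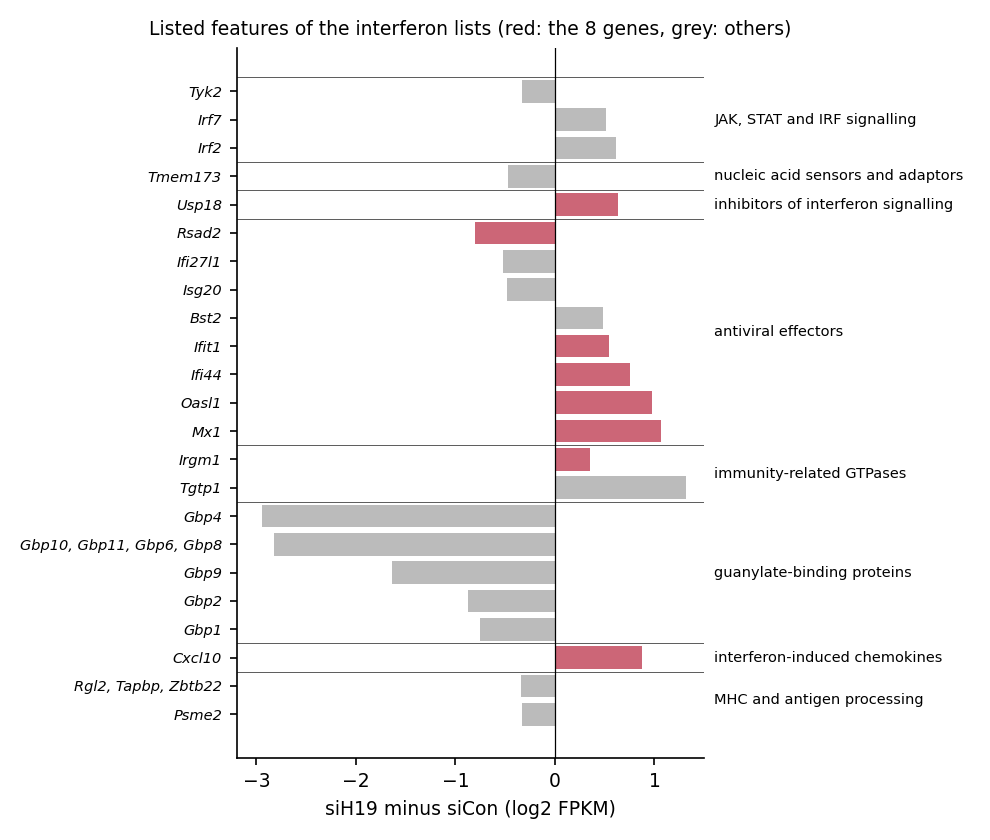
Difference between the groups (x axis, siH19 minus siCon, log2 FPKM) for the 23 listed features of the interferon lists, grouped by role; bars start at 0, red bars are the 8 genes and grey bars the others. Of the red bars, that of Rsad2 points to the lower side, while bars to the higher side end at 1.32 or below and those of the GBP features reach -2.94.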

How the data were processed

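The authors mapped the reads of rRNA-depleted, stranded libraries to mm10 with the TopHat Alignment app (TopHat 1.0.0 and TopHat2 2.0.7 in the submitters' processing notes), assembled them with Cufflinks and estimated both groups' levels in Cuffdiff 2.1.1. The authors deposited log2 FPKM values, 1 per group over 3 libraries, rounded to 2 decimals, for features they called different. Their fold change, q value and significance columns were not used. The gene annotation of the assembly is not given in the sources used here. Depth per library is unknown, so no interval is given.

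Differences were computed here as the siH19 minus the siCon log2 value, so that rounding moves them by up to 0.01. No pseudocount or filter was applied. The counts used a 1.5-fold minimum. No test was run, because 1 value stands for each group. Alternatives were other minima, a pseudocount, a filter on low values and centring. Genes named are the 8 members, H19 and listed genes of role lists, and others are named as chosen afterwards. The members and lists were chosen with earlier results of these data known. List genes were also looked up by RefSeq synonyms. Starts in the table equalled the GENCODE M21 start minus 1 for 484 of 2328 symbols annotated once and the start itself for 65, so 1 was added. Promoters came from RefSeq GRCm38.p6, with the bases after the start removed. The scripts ran on pandas 2.3.3, numpy 2.4.6 and matplotlib 3.10.9 under Python 3.11.15, and were tested on simulated data.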

Additional observations from a re-analysis of the deposited data

How the results depend on the processing

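No paired analysis was possible because the table holds 1 value per group, and for the same reason no replicate could be left out. Counts of genes past a minimum depended on its size and on the scale. At 2-fold, 1 of the 8 genes was higher and 0 were lower. With 1 FPKM added, 1 was higher and 0 were lower, and the median difference was 0.393. With a log2 FPKM of at least 0 required in the higher group, 3 were higher and the median was 0.585. After centring on the median of listed features, 1 was higher, the median was 0.24, and Irgm1 turned from 0.35 to -0.10. Centring subtracts a constant, and whether that constant reflects the cells or the scaling was not tested. In the interferon lists, the features higher by 1.5-fold numbered 11 without a minimum, 2 at 2-fold, 1 with 1 FPKM added, 4 with the filter and 2 after centring. Those lower numbered 12 without a minimum, 3 at 2-fold, 5 with 1 FPKM added and 12 after centring. Adding 1 or 0.1 FPKM left the direction of each of the 8 genes as it was. Leaving out features with several symbols changed no count over the 8 genes. The window around Irgm1, added after seeing the data, held 6 features within 100 kb.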

Other observations

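Several of the genes have a relative or partner within 100 kb that responds to interferon, a choice made once values were known. Of 8 such genes looked up, 0 were listed by symbol, and Cxcl11 lies within the locus that the table gives to Cxcl10. They are Cmpk2, 12.8 kb from Rsad2, Ifi44l, 8.78 kb from Ifi44, Oasl2, 11.0 kb from Oasl1, Mx2, 72.4 kb from Mx1, Ifit2 and Ifit3, 64.5 and 52.1 kb from Ifit1, and Cxcl9 and Cxcl11, 18.6 and 10.7 kb from Cxcl10. Irgm1 had a listed relative in Tgtp1, 114 kb away by the GENCODE annotation, while Irgm2 and Igtp, 9330 kb away on the same chromosome, were not listed. The table does not tell an unlisted gene that was measured without a call from one that was not measured. The listed gene closest to Mx1 was Bace2, a protease gene 7.74 kb away, at 1.09 FPKM in siCon against 0.514 FPKM in siH19, the opposite direction to Mx1.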
